A study of Rattus norvegicus with 100 samples.

Results

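GW7647 is a synthetic agonist of peroxisome proliferator-activated receptor alpha (PPARα), a nuclear receptor of the hepatocyte that fatty acids also activate. The arrays described here compared primary rat hepatocytes cultured for 24 h with 1 µM GW7647 with hepatocytes cultured for 24 h at 0 µM. They were chosen by the concentration and the time in the sample titles, which gave 4 arrays at 1 µM and 3 at 0 µM, 7 of the 100 arrays of the series. The cells came from 4 independent rats, Rs627, Rs628, Rs631 and Rs632. Each rat gave an array at 1 µM, and Rs627, Rs631 and Rs632 gave an array at 0 µM. The hepatocytes were plated on collagen IV, overlaid with Geltrex, a basement membrane gel, and kept in William E medium with a maintenance cocktail, and both groups shared these conditions. Strain, sex and age are not given in the labels, nor is any solvent for the cultures at 0 µM. The series as a whole covers 5 times from 2 to 72 h and 5 concentrations from 0.001 to 10 µM beside 0 µM.

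In liver, PPARα binds DNA as a dimer with a retinoid X receptor, and its agonists are known to raise genes of fatty acid uptake, activation and oxidation in mitochondria and peroxisomes, of microsomal ω-oxidation and of ketone body formation. Fatty acids enter mitochondria as carnitine esters, are shortened by acyl-CoA dehydrogenases, hydratases and thiolases, and leave as acetyl-CoA. Very long, branched and dicarboxylic fatty acids are first shortened in peroxisomes.

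The dimer is known to bind a direct repeat of a hexamer with 1 base between the copies. The letters AGGNCANAGGNCA are a form of that repeat in which N stands for any base, so the copies may differ. They were searched on both strands in RefSeq windows from 250 bases before to 50 bases after each gene's start (build GRCr8). No other motif was searched. The letters were found in 139 of 33469 windows (0.415%) and in 23 of the 7495 tested genes that had a window (0.307%). Among the genes that were higher at 1 µM under 3 scalings of the arrays, 5 of 513 held a match (0.975%), and among those that were lower 0 of 542 did. The stretches of 120 bases that end at the start are printed for 3 of the 5, because they are a binding protein, a P450 and a glycogen enzyme whose values are given below; the capitals mark the match. Fabp1 lies at chr4:104749220-104749339 on the plus strand with the match on the opposite strand, Cyp2d3 at chr7:115802143-115802262 and Gys2 at chr4:177137237-177137356, both on the minus strand with the match on the strand of the gene. The matches began 77, 73 and 80 bases before the start of Fabp1, Cyp2d3 and Gys2. A match is a description of these letters and not evidence of binding.
Fabp1: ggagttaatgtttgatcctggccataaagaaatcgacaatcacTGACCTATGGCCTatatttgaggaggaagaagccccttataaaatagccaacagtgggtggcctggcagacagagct
Cyp2d3: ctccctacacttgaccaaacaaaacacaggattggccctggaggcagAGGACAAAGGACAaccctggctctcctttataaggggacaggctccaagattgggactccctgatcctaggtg
Gys2: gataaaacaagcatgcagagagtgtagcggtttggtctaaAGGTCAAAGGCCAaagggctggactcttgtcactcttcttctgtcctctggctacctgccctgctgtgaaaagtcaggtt

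The values are log2 intensities of probe sets, normalised by the authors, and a difference of 1 is a change of 2-fold. Each gene was read from its brightest probe set, and 8843 genes passed a filter of log2 above 5 in at least 3 of the 100 arrays. Of 16 hepatocyte markers measured, 15 passed the filter and 11 were above 5 in all 7 arrays, and albumin (Alb) read 13.73, 13.70, 13.71 and 13.74 at 1 µM, against 13.70, 13.70 and 13.64 at 0 µM. Wherever values of all arrays are given, those at 1 µM stand in the order Rs627, Rs628, Rs631, Rs632 and those at 0 µM in the order Rs627, Rs631, Rs632. The 1 µM arrays of Rs631 and Rs632, the last 2 of the 4 values, had a low 75th percentile of 6.45 and 6.50, against 6.86 and 6.97 in the other 1 µM arrays and 6.88, 7.0 and 7.10 in the 0 µM arrays. Over the 100 arrays that percentile lay between 6.42 and 7.27 and was under 6.6 in 5. The medians of the 7 arrays averaged 4.26 in both groups and the 95th percentiles 9.87 at 1 µM and 9.89 at 0 µM, so that the arrays differed in the middle of the range. The labels give plate positions to these 2 arrays that other arrays carry too. Where the count of a gene list moved after scaling each array by its 75th percentile, after quantile normalization, without these 2 arrays or with the rat as a block, the moved counts follow it.

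**Figure D1:**
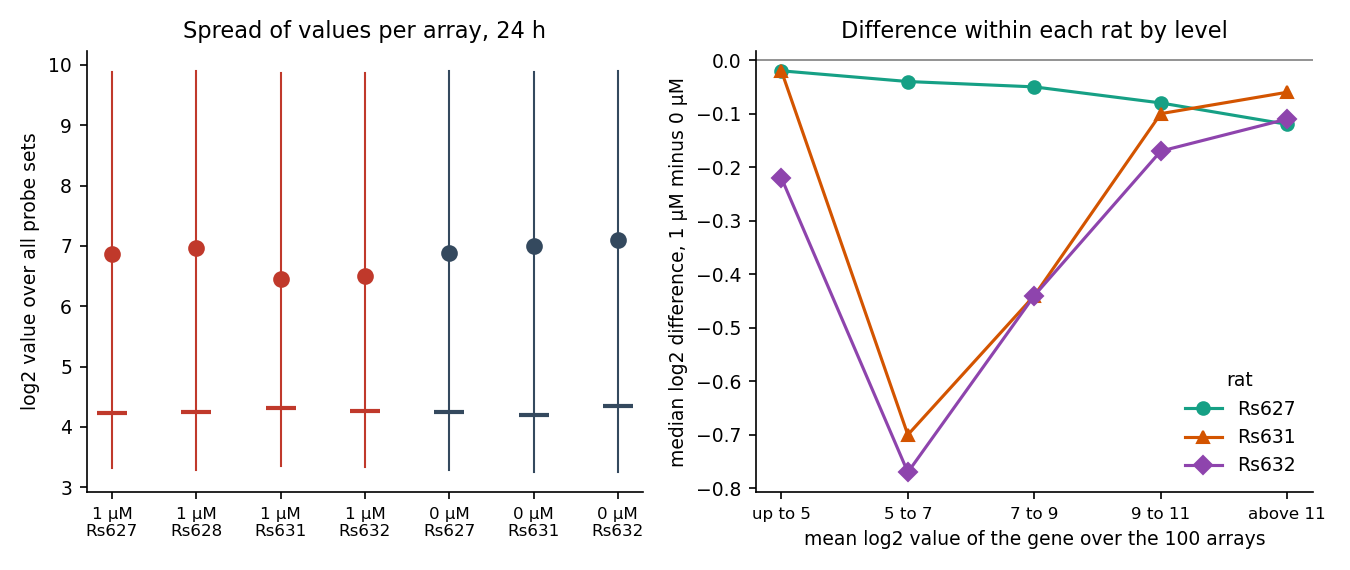
Left, log2 values over all probe sets in each 24 h array, with 1 µM arrays in red and 0 µM arrays in blue; lines run from the 25th to the 95th percentile, dashes are medians and circles the 75th percentile, which is 6.45 and 6.50 in the 1 µM arrays of Rs631 and Rs632. Right, the median log2 difference (1 µM minus 0 µM) within each rat for genes grouped by mean log2 value; for genes between 5 and 7 it is -0.70 in Rs631 and -0.77 in Rs632, and -0.04 in Rs627.

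At an adjusted p under 0.05 (limma on all 100 arrays, Benjamini-Hochberg over 8843 genes), 624 genes were higher at 1 µM than at 0 µM (7.06%) and 1995 were lower (22.6%). More than 2-fold changes were seen in 190 of the rises and 352 of the falls. Without the 1 µM arrays of Rs631 and Rs632 511 genes were higher (5.78%) and 558 lower (6.31%), and after 75th percentile scaling 1297 were higher (14.7%) and 650 lower (7.35%). Quantile normalization gave 907 higher (10.3%) and 1391 lower (15.7%). The median change of all genes was -0.23 as deposited, 0.07 after 75th percentile scaling and -0.08 after quantile normalization, and changes are to be read relative to it. Among genes with a mean value between 5 and 7, the median difference was -0.04 within Rs627, against -0.70 within Rs631 and -0.77 within Rs632. A call that kept its direction and passed under the deposited scale, 75th percentile scaling and quantile normalization is termed scale-independent here. There were 604 such rises (6.83%) and 650 such falls (7.35%), of which 459 rises and 230 falls also passed without the 2 arrays. With the rat as a block, 1009 genes were higher (11.4%) and 3396 lower (38.4%). Counts of the gene lists below are to be read beside these shares of all genes, each under its own setting. Leaving out 1 array at a time, the number lower was 1031 without the 1 µM array of Rs632, 1178 without the 0 µM array of Rs632 and 1214 without the 0 µM array of Rs631.

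Of 27 tested genes listed as known PPARα targets of rat or mouse liver, 23 were higher at 1 µM, none was lower and 22 were scale-independent; their median change was 1.5 log2, against -0.23 over all genes. The count was 22 without the 2 arrays of low signal and after quantile normalization. The 4 that did not pass were Fgf21, Ppara, Apoa1 and Apoc3. Fgf21, a hormone that fasting induces in liver, read 10.86, 10.61, 10.76 and 11.60 at 1 µM, against 10.33, 10.02 and 10.20 at 0 µM. Its groups did not overlap, yet the change of 0.77 ± 0.38 (SE) had an adjusted p of 0.114, and was 0.56 without the 1 µM array of Rs632. Ppara itself, the receptor of the agonist, read 5.12, 4.97, 4.82 and 4.83 at 1 µM, against 4.75, 4.55 and 5.19 at 0 µM, at the floor of detection, with overlapping groups. The apolipoprotein genes Apoa1 and Apoc3 changed by -0.28 ± 0.30 and 0.05 ± 0.08 (SE), with adjusted p of 0.485 and 0.644.

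Fatty acid binding and activation. Fabp1, the main fatty acid binding protein of hepatocytes and the first sequence above, read 13.03, 12.96, 12.83 and 12.89 at 1 µM, against 10.26, 9.25 and 8.67 at 0 µM. All 4 treated arrays sat within a narrow band above the 3 control arrays, which spread more; the rise was 11.6-fold, with a log2 change of 3.54 ± 0.42 (SE, adjusted p = 3.99e-10). Fabp3, the heart form of the same family, read 10.81, 10.51, 7.40 and 9.25 at 1 µM, against 3.75, 4.15 and 3.84 at 0 µM. It lay below 5 in every control array and above 7 in every treated one, so the rise was at least 22.5-fold (adjusted p = 1.08e-13). Of the 11 uptake and binding genes tested, 4 rose and 1 fell. For uptake and binding the rises and falls numbered 4 and 0 after 75th percentile scaling, 3 and 1 after quantile normalization, and 4 and 2 with the block. Slc27a2, a very long chain acyl-CoA synthetase and transporter, rose 1.43-fold (adjusted p = 5.65e-05), and Cd36, a fatty acid translocase, 1.74-fold (adjusted p = 0.0449). Without the 0 µM array of Rs631 the log2 change of Cd36 was 0.47, against 0.80 with it. Cd36 had an adjusted p of 0.0805 without the 1 µM array of Rs627, 0.111 without the 1 µM array of Rs632 and 0.334 without the 0 µM array of Rs631. Fabp5, the epidermal form, was 1.69-fold lower (adjusted p = 0.00382), which 75th percentile scaling lost. Fabp5 had an adjusted p of 0.0593 without the 0 µM array of Rs631. Among 10 acyl-CoA synthetases, which make fatty acids available by linking them to coenzyme A, 4 rose and 1 fell. For the synthetases the rises and falls numbered 5 and 0 after 75th percentile scaling, and 6 and 1 with the block. Acsl1, the main liver long-chain form, read 12.52, 12.51, 12.47 and 12.47 at 1 µM, against 10.84, 10.37 and 10.66 at 0 µM, a 3.66-fold rise with no overlap (adjusted p = 9.04e-14). Acsl3 rose 3.27-fold and Acsl5 1.7-fold by its brightest probe set, while another Acsl5 probe set was lower at 1 µM by -1.20 log2, so that its direction is unsettled. Acsl4, the arachidonate-preferring form, was 1.46-fold lower (adjusted p = 0.00136), a call that 75th percentile scaling lost.

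**Figure D2:**
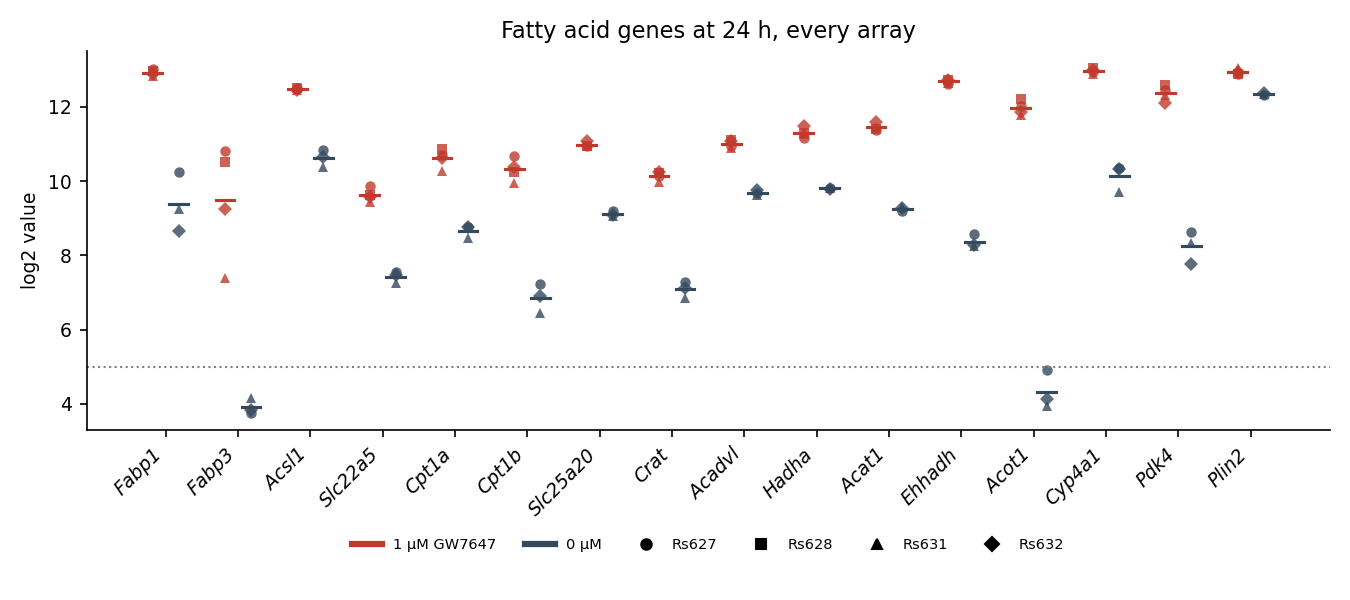
Log2 values of 16 genes of fatty acid use in each 24 h array, with 1 µM arrays in red to the left of 0 µM arrays in blue; marker shapes are rats, short lines are group means and the dotted line is the floor of 5. In each gene shown the 4 treated arrays lie above the 3 control arrays, and Fabp3 and Acot1 lie below the floor at 0 µM.

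Entry into mitochondria. Of the 8 genes of the carnitine shuttle, 7 rose and none fell, with a median change of 1.91, and the count was 7 under each scaling and without the 2 arrays. Cpt1a, the liver carnitine palmitoyltransferase that limits entry, read 10.70, 10.87, 10.27 and 10.62 at 1 µM, against 8.76, 8.48 and 8.76 at 0 µM, 3.86-fold higher (log2 1.95 ± 0.26 SE, adjusted p = 1.2e-08). Cpt1b, the form known from muscle, read 10.68, 10.26, 9.95 and 10.37 at 1 µM, against 7.22, 6.44 and 6.90 at 0 µM, 11-fold higher (adjusted p = 1.32e-11). All treated arrays again lay above all control arrays. Slc25a20, the inner membrane carrier that exchanges acylcarnitine, rose 3.64-fold, Cpt2, which returns the acyl group to coenzyme A, 2.23-fold, and Slc22a5, the plasma membrane carnitine transporter, 4.64-fold. Crat and Crot, the short-chain and the peroxisomal carnitine transferases, rose 8.4-fold and 3.23-fold. Cpt1c, the brain form, lay below 5 in all 7 arrays and did not pass (adjusted p = 0.112).

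Mitochondrial β-oxidation. All 9 tested hydratases, isomerases and thiolases of the mitochondrial spiral rose, with a median change of 1.26, and all 9 passed under each scaling and without the 2 arrays. Acat1, the thiolase of acetoacetyl-CoA, had the smallest adjusted p among them and read 11.38, 11.41, 11.46 and 11.60 at 1 µM, against 9.19, 9.30 and 9.27 at 0 µM. Both groups were tight and well apart, and the rise was 4.62-fold (log2 2.21 ± 0.12 SE, adjusted p = 7.02e-26). Hadha and Hadhb, the subunits of the trifunctional protein, rose 2.83-fold and 1.62-fold. Eci1 and Eci2, isomerases for unsaturated acids, rose 2.4-fold and 3.44-fold, the thiolase Acaa2 2.66-fold and the dehydrogenase Hadh 2.23-fold. Echs1, the short-chain hydratase, had the smallest rise, 1.39-fold (adjusted p = 0.00695), with overlapping groups. Echs1 had an adjusted p of 0.0644 without the 0 µM array of Rs631. Of the 13 acyl-CoA dehydrogenases and electron transfer flavoprotein genes, 9 rose and none fell. For these genes the rises and falls numbered 11 and 0 after 75th percentile scaling, and 10 and 0 after quantile normalization and with the block. By chain length, Acadvl, for very long chains, rose 2.52-fold, Acadl, for long chains, 1.31-fold, Acadm, for medium chains, 3.76-fold and Acads, for short chains, 2.46-fold. Etfdh and Etfb, which pass the electrons on, rose 1.81-fold and 1.69-fold, and Etfa 1.15-fold.

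Peroxisomes. Of 11 genes of peroxisomal oxidation, 8 rose and none fell, with a median change of 0.81. For peroxisomal oxidation the rises and falls numbered 11 and 0 after 75th percentile scaling and with the block, 9 and 0 after quantile normalization, and 7 and 0 without the 2 arrays. Ehhadh, the bifunctional enzyme of the peroxisomal spiral, read 12.63, 12.74, 12.65 and 12.74 at 1 µM, against 8.57, 8.25 and 8.27 at 0 µM, a rise of 20.1-fold (log2 4.33 ± 0.26 SE, adjusted p = 1.32e-22). The treated arrays lay close together and far above the controls. Hacl1, a lyase of branched-chain oxidation, rose 9.04-fold, Ech1, a dienoyl isomerase, 2.86-fold, Abcd3, a half-transporter of the peroxisomal membrane, 2.21-fold, and Hsd17b4, the second bifunctional enzyme, 1.75-fold. Catalase (Cat), which removes the peroxide made there, rose 1.53-fold. Pecr rose 1.14-fold (adjusted p = 0.0158). Pecr had an adjusted p of 0.0674 without the 0 µM array of Rs632. Acox2, Phyh and Amacr, which act on branched chains and bile acid side chains, had changes of 0.83 ± 0.34, 0.54 ± 0.24 and 0.40 ± 0.20 (SE) and did not pass on the deposited scale (adjusted p = 0.057, 0.08 and 0.117). After 75th percentile scaling all 3 passed (adjusted p = 0.0115, 0.0128 and 0.0199), and so they did with the block; Acox2 also passed after quantile normalization (adjusted p = 0.037). Acox2 had an adjusted p of 0.0185 without the 1 µM array of Rs631 and 0.0302 without the 0 µM array of Rs627. Phyh had an adjusted p of 0.0472 without the 0 µM array of Rs627. Of the 13 peroxins, the proteins that build peroxisomes, 6 rose and none fell. For peroxins the rises and falls numbered 9 and 0 after 75th percentile scaling, 8 and 0 after quantile normalization, and 7 and 0 with the block. Pex11a, which drives peroxisome division, read 11.39, 11.33, 11.26 and 11.78 at 1 µM, against 9.86, 8.53 and 9.34 at 0 µM, 4.58-fold higher without overlap (adjusted p = 2.86e-07). Pex19 and Pex16, of membrane protein import, rose 3.85-fold and 2.77-fold.

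Thioesterases, coenzyme A and ω-oxidation. Of 7 acyl-CoA thioesterases, which split acyl-CoA back to fatty acid and coenzyme A, 5 rose and none fell. For thioesterases the rises and falls numbered 6 and 0 after 75th percentile scaling and after quantile normalization, and 6 and 1 with the block. Acot1, the cytosolic form, read 12.02, 12.21, 11.79 and 11.86 at 1 µM, against 4.91, 3.95 and 4.13 at 0 µM. Every control array was below the floor and every treated one above 11, at least 125-fold (adjusted p = 1.83e-14), the largest bound of any rise named here. Acot1 is close in sequence to Acot2, which rose 2.81-fold, and the probe sets may not fully separate them. Acot7, Acot8 and Acot12 rose 6.1-fold, 4.67-fold and 5.25-fold. Among 11 genes of coenzyme A supply, 6 rose and Pank3, below 5 in all 7 arrays, passed as lower (adjusted p = 0.0387), a call lost after 75th percentile scaling and without the 2 arrays. For coenzyme A supply the rises and falls numbered 7 and 0 after 75th percentile scaling, 6 and 0 without the 2 arrays, and 7 and 1 with the block. Pank3 had an adjusted p of 0.117 without the 1 µM array of Rs631, 0.127 without the 1 µM array of Rs632, 0.133 without the 0 µM array of Rs631 and 0.163 without the 0 µM array of Rs632. Those that rose included Pank1, the kinase that starts its synthesis, 4.14-fold, Ppcs 3.04-fold, Slc25a42, which carries it into mitochondria, 7.29-fold, and Vnn1, which hydrolyses pantetheine, 2.11-fold. Nudt7, a peroxisomal hydrolase of coenzyme A, rose 4.44-fold as well. The ω-hydroxylase Cyp4a1 read 12.95, 13.05, 12.88 and 12.99 at 1 µM, against 10.36, 9.71 and 10.32 at 0 µM, 7.15-fold higher (adjusted p = 9.52e-13). Cyp4a3 rose 2.6-fold, with the reserve that Cyp4a genes resemble each other. Of the 7 Cyp4 genes tested these 2 rose and Cyp4f1 was 1.42-fold lower, a call that 75th percentile scaling lost. For the Cyp4 genes the rises and falls numbered 3 and 0 after 75th percentile scaling, and 3 and 2 with the block.

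Storage, glycerol and fuel choice. Of 12 genes of lipid droplets and lipolysis, 7 rose and none fell. For lipid droplets the rises and falls numbered 8 and 0 after 75th percentile scaling. Plin2, the coat protein of hepatocyte droplets, read 12.89, 12.90, 13.04 and 12.93 at 1 µM, against 12.31, 12.34 and 12.37 at 0 µM, a small rise of 1.52-fold with no overlap (adjusted p = 7.22e-09). Lipases rose too: Pnpla2, which starts triglyceride breakdown, 3.07-fold and Mgll, which ends it, 3.85-fold. G0s2, the inhibitor of Pnpla2, rose too, 3.54-fold, and so did Fitm2, 3.92-fold, Cidea, 2.55-fold, and Plin5, 2.38-fold, which serve droplet formation, growth and contact with mitochondria. Among the 8 genes of glycerol handling 6 rose and 1 fell. For glycerol handling the rises and falls numbered 5 and 1 without the 2 arrays, and 6 and 2 with the block. The water and glycerol channel Aqp7 read 11.27, 11.16, 10.05 and 11.17 at 1 µM, against 7.08, 4.92 and 7.52 at 0 µM, 21.1-fold higher (adjusted p = 0.00012), the largest fold of a rise named here that is not a bound. The low control value is that of Rs631, and the change was 3.61 log2 without it. Aqp3, another such channel, read 10.28, 9.74, 3.98 and 9.78 at 1 µM, against 3.45, 3.37 and 3.55 at 0 µM. The treated array of Rs631 lay below the floor with the controls and the other 3 near 10; the bound of the rise was 10.9-fold, and its log2 change was 4.98 with and 6.47 without that array. Aqp9, the channel by which hepatocytes are known to take up glycerol, went the other way, with 4.39, 4.86, 3.74 and 3.90 at 1 µM, against 6.14, 6.29 and 6.97 at 0 µM, at least 2.76-fold lower (adjusted p = 1.78e-07). Gk, glycerol kinase, rose 6.33-fold, Gpd2, the mitochondrial glycerol phosphate dehydrogenase, 8.08-fold, and Gpd1, the cytosolic one, 2.57-fold.

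Pdk4, the kinase that switches off pyruvate dehydrogenase, read 12.47, 12.59, 12.32 and 12.12 at 1 µM, against 8.64, 8.32 and 7.76 at 0 µM, 17.5-fold higher (log2 4.13 ± 0.46 SE, adjusted p = 2.55e-11). Pdp2, a phosphatase that opposes it, rose as well, 2.59-fold, and Mpc2, a subunit of the pyruvate carrier, 2.18-fold. Of 19 genes of glycolysis, gluconeogenesis and glycogen, 7 rose and 3 fell. For glucose and glycogen the rises and falls numbered 11 and 2 after 75th percentile scaling, 8 and 3 after quantile normalization, 5 and 2 without the 2 arrays, and 9 and 3 with the block. Pklr, the liver pyruvate kinase and the last step of glycolysis, read 5.65, 5.42, 4.83 and 5.76 at 1 µM, against 7.45, 8.0 and 8.0 at 0 µM, 5.27-fold lower with no overlap (adjusted p = 6.1e-05). Pc, pyruvate carboxylase and the first step of gluconeogenesis from pyruvate, was 4.44-fold higher (adjusted p = 2.12e-05), Fbp1, a later step, 1.86-fold higher (adjusted p = 2.81e-13). Gckr, the inhibitor of glucokinase, rose 1.98-fold. Gys2, glycogen synthase and the third sequence above, read 11.34, 11.03, 11.61 and 11.54 at 1 µM, against 10.44, 10.46 and 10.06 at 0 µM, 2.09-fold higher (adjusted p = 0.00019). Slc2a2, the hepatocyte glucose transporter, was 2.25-fold lower (adjusted p = 0.00026). In the tricarboxylic acid cycle 6 of 13 genes rose and none fell, with steps from 1.22-fold for Idh3g to 2.4-fold for Aco1, the cytosolic aconitase. For the cycle the rises and falls numbered 5 and 0 without the 2 arrays, and 8 and 3 with the block. Idh3g had an adjusted p of 0.0614 without the 1 µM array of Rs627, 0.0614 without the 1 µM array of Rs628, 0.0556 without the 1 µM array of Rs632, 0.0885 without the 0 µM array of Rs631 and 0.115 without the 0 µM array of Rs632. In the respiratory chain 3 of 43 genes rose, near the 7.06% of all genes, and none fell, beside 22.6% of all genes. Their median change was 0.07, against -0.23 over all genes. For this chain the rises and falls numbered 17 and 0 after 75th percentile scaling, 4 and 0 after quantile normalization, and 16 and 0 with the block. Of all genes 14.7%, 10.3% and 11.4% rose in these settings, and 7.35%, 15.7% and 38.4% fell. In the mitochondrial ribosome 1 of 40 genes rose and none fell, beside 7.06% and 22.6% of all genes. For the mitochondrial ribosome the rises and falls numbered 4 and 0 after 75th percentile scaling, 2 and 0 after quantile normalization, 0 and 0 without the 2 arrays, and 5 and 4 with the block.

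Ketone bodies and secreted regulators. Of 6 genes of ketone body metabolism 2 rose and 2 fell; the monocarboxylate carrier Slc16a1 rose 1.33-fold (adjusted p = 0.000457). The lower ones, Bdh2 and Oxct1, passed neither without the 2 arrays (adjusted p = 0.242 and 0.259) nor after 75th percentile scaling. For ketone bodies the rises and falls numbered 2 and 0 after 75th percentile scaling, 3 and 1 after quantile normalization, and 1 and 0 without the 2 arrays. Bdh2 had an adjusted p of 0.0935 without the 1 µM array of Rs632 and 0.0764 without the 0 µM array of Rs631. Oxct1 had an adjusted p of 0.0565 without the 1 µM array of Rs628, 0.0582 without the 1 µM array of Rs631, 0.158 without the 1 µM array of Rs632, 0.137 without the 0 µM array of Rs627 and 0.219 without the 0 µM array of Rs632. Angptl4, an inhibitor of lipoprotein lipase, read 11.46, 11.64, 11.68 and 11.40 at 1 µM, against 10.24, 10.28 and 10.42 at 0 µM, 2.35-fold higher with separate groups (adjusted p = 7.58e-09). Its relative Angptl8 rose 3-fold (adjusted p = 2.24e-09). Vldlr, a lipoprotein receptor, rose 2.84-fold (adjusted p = 1.49e-05).

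Lipid synthesis. Of 10 desaturases and elongases 5 rose and 1 fell. For desaturases and elongases the rises and falls numbered 6 and 0 after 75th percentile scaling. Fads2, the Δ6 desaturase, read 9.01, 8.97, 7.82 and 8.97 at 1 µM, against 6.34, 6.46 and 6.25 at 0 µM, 5.05-fold higher (adjusted p = 3.16e-08). Fads1, the Δ5 desaturase, rose 2.85-fold, Elovl6, which lengthens palmitate, 3.96-fold and Scd, which makes oleate, 1.67-fold. Among 13 genes of fatty acid and triglyceride synthesis, 4 rose and 2 fell. For this synthesis the rises and falls numbered 5 and 1 after 75th percentile scaling, 5 and 2 after quantile normalization, 4 and 0 without the 2 arrays, and 6 and 3 with the block. Me1, malic enzyme, rose 2.82-fold, Agpat2 2.66-fold, Dgat1, the last step of triglyceride synthesis, 2.61-fold and the regulator Srebf1 1.63-fold. Acly, which makes cytosolic acetyl-CoA, was 1.47-fold lower (adjusted p = 0.013), which 75th percentile scaling lost. Acly had an adjusted p of 0.0632 without the 0 µM array of Rs627. Cholesterol synthesis and uptake had 2 of 16 genes higher and none lower, beside 7.06% and 22.6% of all genes. For cholesterol the rises and falls numbered 5 and 0 after 75th percentile scaling, 0 and 0 without the 2 arrays, and 2 and 3 with the block. Among 18 apolipoprotein genes and their partners, Mttp, which loads lipid onto apolipoprotein B, rose 1.94-fold (adjusted p = 1.56e-08) and Apob 1.33-fold (adjusted p = 0.00481). Apoa5, which lowers plasma triglyceride, read 7.80, 8.81, 7.78 and 7.24 at 1 µM, against 9.57, 9.94 and 9.40 at 0 µM, 3.32-fold lower (adjusted p = 3.62e-05).

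**Figure D3:**
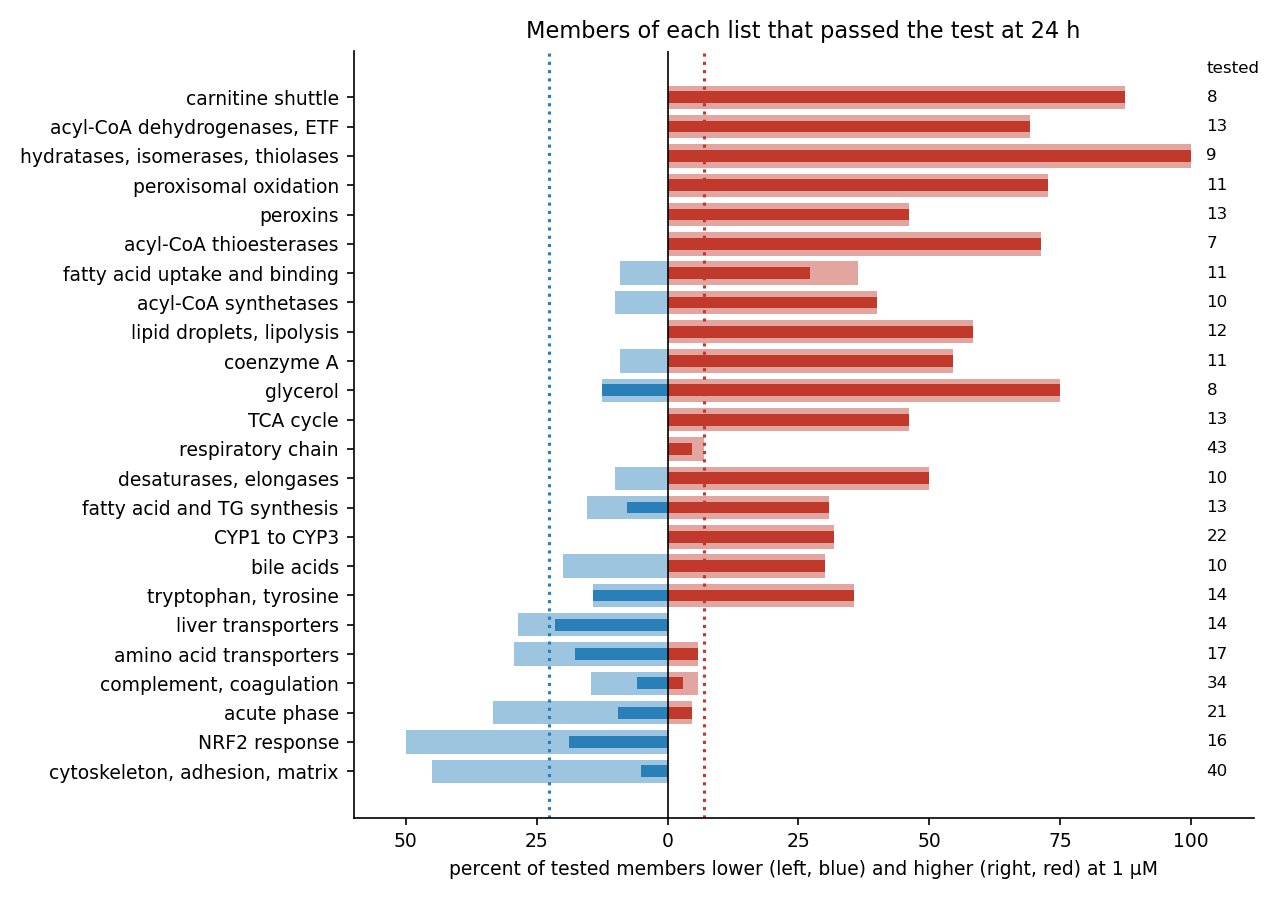
Percent of the tested members of 24 gene lists that were lower (blue, left) or higher (red, right) at 1 µM than at 0 µM; wide pale bars count calls on the deposited scale, narrow dark bars those that also passed after 75th percentile scaling and quantile normalization, dotted lines are the shares over all genes (22.6% lower, 7.06% higher) and the column at right gives the members tested. The fatty acid lists at the top lie to the right, and most pale bars at the bottom lose much of their length on the other scales.

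Bile acids, P450s and transporters. Cyp8b1, the enzyme that sets the cholic acid share of bile acids, read 9.01, 8.42, 8.07 and 9.03 at 1 µM, against 6.21, 6.25 and 5.40 at 0 µM, 6.41-fold higher (adjusted p = 1.92e-07). Cyp7a1, the rate-limiting enzyme, had overlapping groups and a change of -1.06 ± 0.72 (SE, adjusted p = 0.251). Of 10 bile acid genes 3 rose and 2 fell. For bile acids the rises and falls numbered 4 and 0 after 75th percentile scaling, 3 and 1 after quantile normalization, 2 and 1 without the 2 arrays, and 4 and 2 with the block. Abcb11, the canalicular bile salt pump, rose 1.43-fold (adjusted p = 0.00481), while Cyp27a1, of the alternative pathway, was 1.68-fold lower (adjusted p = 3.21e-05), not past the threshold after 75th percentile scaling. Abcc2, the canalicular pump of conjugated bilirubin and drugs, read 8.06, 7.86, 9.15 and 7.46 at 1 µM, against 10.33, 11 and 10.30 at 0 µM, 5.32-fold lower. No treated array reached the controls, and the adjusted p was 2.76e-06, or 2.74e-05 without the 2 arrays. Of 14 liver transporters none rose and 4 fell, beside 22.6% of all genes, and Abcc2 and Abcb1a passed without the 2 arrays. For the transporters the rises and falls numbered 1 and 3 after 75th percentile scaling, 0 and 3 after quantile normalization, 0 and 2 without the 2 arrays, and 1 and 7 with the block. Abcb1a had an adjusted p of 0.0613 without the 1 µM array of Rs632 and 0.125 without the 0 µM array of Rs631. Among 22 P450 genes of families 1 to 3, with their reductase, 7 rose and none fell. For these P450 genes the rises and falls numbered 9 and 0 after 75th percentile scaling, 6 and 0 without the 2 arrays, and 12 and 2 with the block. Cyp2d3, the second sequence above, read 11.47, 11.60, 11.14 and 11.74 at 1 µM, against 10.23, 9.84 and 10.05 at 0 µM, 2.73-fold higher (adjusted p = 1.92e-07). Por, the reductase that serves these enzymes, rose 2.25-fold (adjusted p = 1.97e-06). In conjugation 5 of 26 genes rose and 4 fell, beside 7.06% and 22.6% of all genes. For conjugation the rises and falls numbered 6 and 1 after 75th percentile scaling, 7 and 4 after quantile normalization, 4 and 3 without the 2 arrays, and 8 and 8 with the block. Ephx2, the soluble epoxide hydrolase, rose 4.99-fold (adjusted p = 7.52e-09) and Ugt2b1 was 2.21-fold lower (adjusted p = 0.000815).

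Amino acids. Of 14 genes of tryptophan and tyrosine breakdown 5 rose and 2 fell. For tryptophan and tyrosine the rises and falls numbered 4 and 2 without the 2 arrays, and 7 and 2 with the block. Kmo, kynurenine monooxygenase, read 4.49, 4.81, 4.11 and 4.10 at 1 µM, against 6.36, 7.29 and 6.69 at 0 µM, at least 3.43-fold lower with every treated array under the floor (adjusted p = 0.000462). Its neighbours on the kynurenine path, Afmid and Aadat, were 2.08-fold and 2.44-fold higher (adjusted p = 9.73e-05 and 3.07e-07). In the urea cycle and nitrogen list 2 of 14 genes fell and none rose, beside 22.6% and 7.06% of all genes. For urea and nitrogen the rises and falls numbered 2 and 1 after 75th percentile scaling, 1 and 2 after quantile normalization, 0 and 3 without the 2 arrays, and 4 and 4 with the block. Ass1, argininosuccinate synthase, read 10.06, 9.89, 10.61 and 9.64 at 1 µM, against 11.48, 11.65 and 11.13 at 0 µM, 2.58-fold lower (adjusted p = 9.94e-07), the fall of that list that passed under all 3 scalings. Among 17 amino acid transporters 1 rose and 5 fell, beside 22.6% of all genes lower. For amino acid transporters the rises and falls numbered 1 and 3 after 75th percentile scaling, 1 and 4 after quantile normalization, 1 and 2 without the 2 arrays, and 1 and 8 with the block. Slc38a3, a glutamine transporter, was 1.91-fold lower (adjusted p = 2.18e-06), and Slc6a13, a taurine and GABA transporter, was 6.14-fold higher (adjusted p = 5.76e-06).

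Plasma proteins and hepatocyte markers. Klkb1, plasma prekallikrein, read 5.25, 4.85, 4.27 and 5.09 at 1 µM, against 7.26, 7.39 and 7.15 at 0 µM, 5.29-fold lower with no overlap (adjusted p = 7.52e-09). Among 34 complement and coagulation genes 2 rose and 5 fell, fewer than the 22.6% of all genes lower. For complement and coagulation the rises and falls numbered 7 and 2 after 75th percentile scaling, 1 and 3 without the 2 arrays, and 9 and 9 with the block. C1r, a protease of the classical complement pathway, was 1.77-fold lower (adjusted p = 1.03e-05), the other scale-independent fall. Of 21 acute phase and inflammation genes 1 rose and 7 fell, 2 of them scale-independently, beside 22.6% of all genes lower and 38.4% with the block. For the acute phase the rises and falls numbered 1 and 2 after 75th percentile scaling and without the 2 arrays, 1 and 4 after quantile normalization, and 2 and 10 with the block. Cebpd, a transcription factor of that response, read 4.94, 5.77, 5.32 and 3.73 at 1 µM, against 6.72, 8.03 and 7.24 at 0 µM, 5.23-fold lower (adjusted p = 0.000227), while Cebpb was 1.51-fold higher (adjusted p = 0.00348). Cxcl1, a neutrophil chemokine, read 5.33, 5.90, 3.50 and 3.11 at 1 µM, against 7.81, 6.91 and 6.51 at 0 µM. Its 6.14-fold lower mean (adjusted p = 0.0209) was not past the threshold without the 2 arrays (adjusted p = 0.435). Cxcl1 had an adjusted p of 0.0691 without the 1 µM array of Rs631, 0.101 without the 1 µM array of Rs632 and 0.0818 without the 0 µM array of Rs627. Among 15 hepatocyte identity genes 1 rose and 6 fell, 2 of them scale-independently, beside 22.6% of all genes lower and 38.4% with the block. For hepatocyte identity the rises and falls numbered 4 and 2 after 75th percentile scaling, 3 and 6 after quantile normalization, 1 and 4 without the 2 arrays, and 3 and 7 with the block. Rgn, regucalcin, a calcium binding protein of liver, read 5.79, 6.10, 5.43 and 6.09 at 1 µM, against 7.61, 7.70 and 8.45 at 0 µM, 4.2-fold lower (adjusted p = 2.43e-07), and Foxa2, a transcription factor, 1.61-fold lower (adjusted p = 4.58e-06).

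Receptors and regulators. Of 20 nuclear receptors and coregulators 6 rose and 3 fell. For receptors and coregulators the rises and falls numbered 7 and 0 after 75th percentile scaling, 6 and 2 after quantile normalization, 3 and 0 without the 2 arrays, and 6 and 5 with the block. Rxrg, a retinoid X receptor, read 8.59, 8.0, 7.87 and 8.51 at 1 µM, against 6.65, 6.04 and 6.61 at 0 µM, 3.5-fold higher (adjusted p = 2.42e-05). Nr1i3, the constitutive androstane receptor, read 7.36, 7.32, 5.32 and 6.50 at 1 µM, against 4.91, 4.16 and 4.86 at 0 µM. Its controls lay under the floor and the lowest treated array, that of Rs631, just above it (adjusted p = 0.000629; at least 3.08-fold). Creb3l3, a membrane-bound factor of fasting liver, rose 2.08-fold (adjusted p = 2.39e-07). Ppargc1a, a coactivator of PPARα, was 2.42-fold lower (adjusted p = 0.00783), with adjusted p of 0.0617 after 75th percentile scaling and 0.0989 without the 2 arrays. Hlf, a clock output factor, rose 4.03-fold (adjusted p = 2.28e-06). Of 16 clock genes it was the rise that passed, while 2 fell, beside 7.06% and 22.6% of all genes. For clock genes the rises and falls numbered 3 and 0 after 75th percentile scaling, 1 and 0 after quantile normalization and without the 2 arrays, and 2 and 3 with the block. Txnip, an α-arrestin that binds thioredoxin, rose 3.81-fold (adjusted p = 2.24e-07). Its relative Arrdc4 read 6.67, 6.41, 6.12 and 6.35 at 1 µM, against 8.20, 8.06 and 8.53 at 0 µM, 3.67-fold lower (adjusted p = 6.3e-10), and another, Arrdc2, changed by -0.22 ± 0.31 (SE, adjusted p = 0.593). Txnip and Arrdc4 moved in opposite directions under all 3 scalings, each with groups that did not overlap.

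Stress, cytoskeleton and other cell types. Of 16 genes listed for NRF2, the regulator of the oxidative stress response, 8 fell and none rose, beside 22.6% and 7.06% of all genes. The list holds known targets and also Nfe2l2, the gene of NRF2 itself, and Keap1. The scale-independent falls were 3, beside 7.35% of all genes. For this list the rises and falls numbered 2 and 3 after 75th percentile scaling and 1 and 7 after quantile normalization. Without the 2 arrays they numbered 1 and 4. Of all genes 7.35%, 15.7% and 6.31% fell in these settings. With the rat as a block 8 of the NRF2 list fell and none rose, beside 38.4% and 11.4% of all genes. Srxn1, sulfiredoxin, read 7.91, 8.26, 8.65 and 7.92 at 1 µM, against 9.14, 9.78 and 9.57 at 0 µM, 2.48-fold lower (adjusted p = 5.76e-06). Of 40 cytoskeleton, adhesion and matrix genes 18 fell and none rose, beside 22.6% and 7.06% of all genes. Scale-independent falls numbered 2. For the cytoskeleton list the rises and falls numbered 3 and 2 after 75th percentile scaling, 0 and 14 after quantile normalization, 0 and 3 without the 2 arrays, and 2 and 29 with the block. With the block 38.4% of all genes fell. Ccn2, a matricellular growth factor, read 10.23, 11.82, 9.14 and 8.78 at 1 µM, against 12.50, 12.34 and 12.51 at 0 µM. Its 5.48-fold lower mean (adjusted p = 0.00177) was not past the threshold without the arrays of Rs631 and Rs632 at 1 µM (adjusted p = 0.213). Endothelial markers were above 5 in none of the 7 arrays for any of 10 genes measured, with summed log2 values of 33.1 to 35.6 at 1 µM and 32.3 to 32.9 at 0 µM. Stellate and fibroblast markers, of which 9 of 14 passed the filter, gave no call, with sums of 65.0 to 68.5 at 1 µM and 64.7 to 69.0 at 0 µM. For these markers the rises and falls numbered 1 and 0 after quantile normalization, and 0 and 1 with the block. Of 3 macrophage markers tested, Lyz2 was 2.73-fold lower (adjusted p = 0.0008) and Cd14 1.64-fold higher (adjusted p = 0.0424), and the sums of the 12 measured ran from 51.4 to 56.0 at 1 µM and from 52.0 to 55.3 at 0 µM. For macrophage markers the rises and falls numbered 0 and 1 without the 2 arrays. Cd14 had an adjusted p of 0.0652 without the 1 µM array of Rs628, 0.0808 without the 1 µM array of Rs631, 0.0856 without the 1 µM array of Rs632, 0.0923 without the 0 µM array of Rs627 and 0.23 without the 0 µM array of Rs632. In bulk cultures fewer cells of a type and less RNA per cell cannot be told apart. Of 6 tested genes known best from muscle, 3 rose: Cpt1b, Fabp3 and Ucp3, an uncoupling protein below 5 in all controls and in 2 of 4 treated arrays (adjusted p = 0.00657). Ucp3 read 5.38, 5.69, 3.23 and 4.31 at 1 µM, against 3.26, 3.44 and 3.59 at 0 µM, with overlapping groups. Its treated array of Rs631 lay below all controls. For the muscle genes the rises and falls numbered 3 and 1 with the block. Of 4 adipocyte markers tested 1 rose, and of 5 cholangiocyte markers none passed. For adipocyte markers the rises and falls numbered 2 and 0 after 75th percentile scaling. For cholangiocyte markers the rises and falls numbered 0 and 1 with the block.

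Genes with the steepest changes outside these lists were named by a rule on scale-independent calls with the same sign in all 3 rats. Among the rises, Nim1k, a protein kinase, read 9.87, 9.78, 8.74 and 9.92 at 1 µM, against 6.04, 4.89 and 6.36 at 0 µM, 14.1-fold higher (adjusted p = 2.96e-11). Slc34a2, a sodium phosphate cotransporter, rose 8.65-fold, Abhd1 8.3-fold and Aig1, a hydrolase of fatty acid esters of hydroxy fatty acids, 7.58-fold. Fer1l5, a ferlin family member, read 9.46, 9.87, 5.68 and 9.14 at 1 µM, against 4.91, 4.03 and 6.47 at 0 µM, with overlapping groups. Fer1l5 had an adjusted p of 0.0593 without the 1 µM array of Rs632 and 0.106 without the 0 µM array of Rs631. From below the floor in all control arrays came Cacna2d3, a calcium channel subunit, with 7.71, 7.46, 6.83 and 7.06 at 1 µM, at least 4.8-fold (adjusted p = 3.59e-20). Serpine2, a protease inhibitor, rose at least 8.9-fold in the same way, Colq at least 3.51-fold and Abhd15 at least 2.08-fold. Among the falls, Gna14, a G protein alpha subunit, read 4.15, 6.40, 3.58 and 3.48 at 1 µM, against 7.26, 7.66 and 8.22 at 0 µM, 9.92-fold lower (adjusted p = 8.1e-05). The Rs628 array was the highest treated one and still lay below the controls. Sult6b2, a sulfotransferase family member, read 6.95, 8.03, 6.59 and 5.55 at 1 µM, against 9.54, 9.61 and 9.65 at 0 µM, 7.06-fold lower (adjusted p = 1.2e-08), and Pkdcc, a secreted tyrosine kinase, 5.92-fold lower (adjusted p = 3.54e-08). Rcan1, an inhibitor of calcineurin, was 4.52-fold lower and Cdr2 4.74-fold lower. Of the 15 falls so named, Cav1, Cxcl1, Ccn2, Nrep, Plcxd2 and Pcdh18 did not pass without the 2 arrays, with adjusted p of 0.423 for Cav1, 0.181 for Nrep, 0.0677 for Plcxd2 and 0.0537 for Pcdh18. Cav1 had an adjusted p of 0.0662 without the 1 µM array of Rs631 and 0.0664 without the 0 µM array of Rs632. Falling below the floor in all treated arrays, Car2, carbonic anhydrase, was at least 2.48-fold lower, Slc41a3 at least 3.03-fold, Klhl23 at least 2.13-fold, the zinc transporter Slc39a6 at least 1.3-fold and Rell2 at least 1.26-fold.

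**Figure D4:**
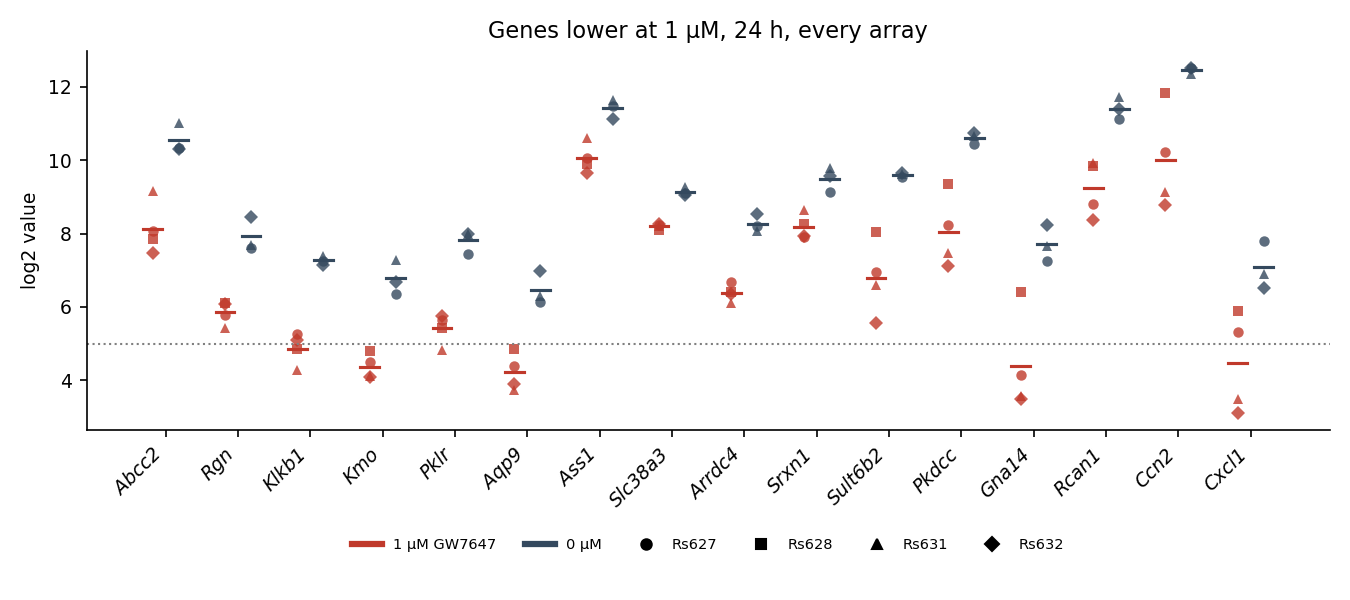
Log2 values of 16 genes lower at 1 µM in each 24 h array, with 1 µM arrays in red to the left of 0 µM arrays in blue; marker shapes are rats, short lines are group means and the dotted line is the floor of 5. In Ass1 and Abcc2 all treated arrays lie below the controls, while in Ccn2 and Cxcl1 the treated arrays spread widely.

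Neighbouring concentrations at 24 h were compared to see whether 1 µM had reached a plateau; they share the 3 control arrays, and the values against 0 µM are given side by side. For 1 µM against 0.1 µM limma called no gene at an adjusted p under 0.05 (0% of 8843), with 1470 genes at an unadjusted p under 0.05. Against 10 µM it called none (0%), with 240 at an unadjusted p under 0.05. The unadjusted 95% interval of a difference had a median half-width of 0.39 log2 in both comparisons. The adjusted threshold asks for larger differences than that, so the lack of calls does not show that the concentrations acted equally. With the rat as a block, 74 genes differed from 0.1 µM, 15 higher and 59 lower at 1 µM, and 0 from 10 µM. Leaving out the 1 µM array of Rs628 gave 384 differences from 0.1 µM, and leaving out the 10 µM array of Rs631 gave 19 from 10 µM. Ehhadh changed against 0 µM by 0.45, 1.79, 4.11, 4.33 and 4.37 log2 at 0.001, 0.01, 0.1, 1 and 10 µM. Acot1 changed by -0.04, 2.27, 7.28, 7.64 and 7.65 over the same concentrations. The 0 µM arrays of Acot1 and Fabp3 and the 1 µM arrays of Kmo lie below 5, so these fitted changes are not bounds. For Ehhadh and Acot1, the value at 0.1 µM was nearer to that at 1 µM than to 0. Fabp3 changed by -0.01, 0.10, 3.57, 5.58 and 5.57, with a difference of 2.01 ± 0.53 (SE) between 1 and 0.1 µM (adjusted p = 0.203). Among the falls, Abcc2 changed by -0.34, -0.73, -1.57, -2.41 and -2.50, and Kmo by -0.28, -0.38, -0.92, -2.40 and -1.90. The smallest p against 0.1 µM was that of Acot7, 0.82 ± 0.18 log2 higher at 1 µM (SE, adjusted p = 0.113).

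**Figure D5:**
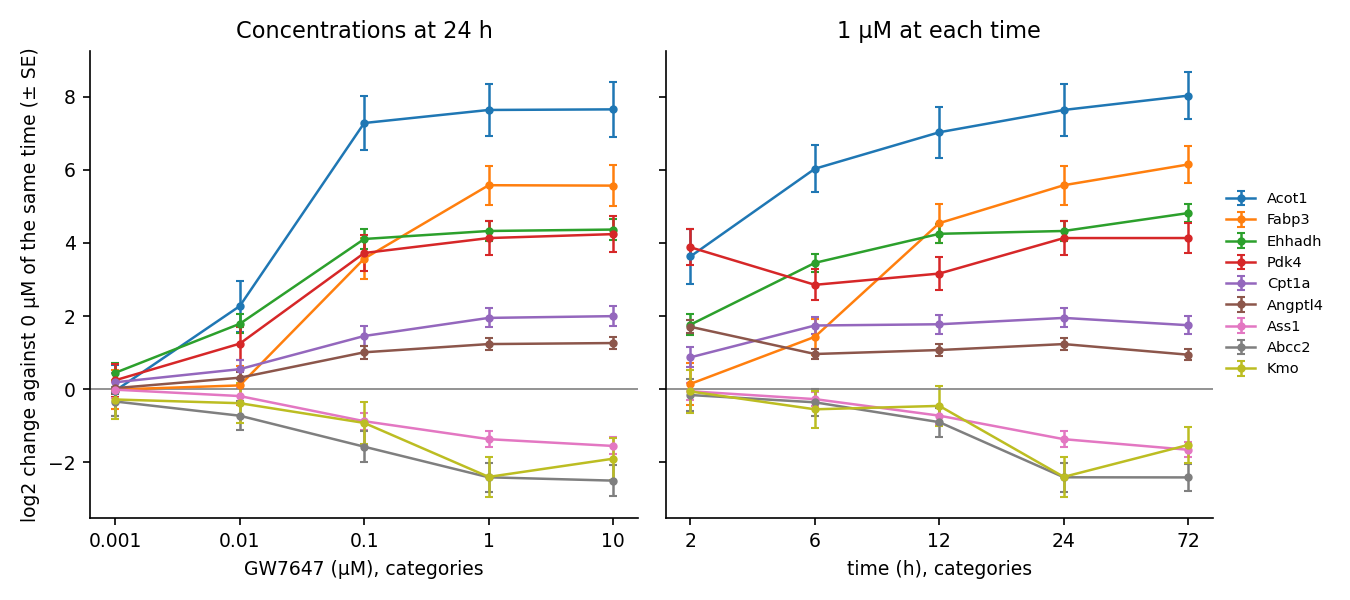
Log2 change against the 0 µM arrays of the same time (± SE of the limma fit) for 9 genes, by concentration at 24 h (left) and by time at 1 µM (right), drawn as equally spaced categories. Acot1 reaches 7.28 at 0.1 µM and 7.64 at 1 µM, whereas Abcc2 and Kmo are near 0 at 2 h and reach -2.41 and -2.40 at 24 h.

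The change at 1 µM was also followed over time, each time against its own 0 µM arrays. Pdk4 changed by 3.88, 2.85, 3.16, 4.13 and 4.13 log2 at 2, 6, 12, 24 and 72 h, so that its change at 2 h was already near that at 24 h. Angptl4 likewise changed by 1.71, 0.96, 1.07, 1.23 and 0.94. Ehhadh, in contrast, stood at 1.76, 3.46, 4.25, 4.33 and 4.82, and Fabp3 at 0.14, 1.43, 4.54, 5.58 and 6.15. Among the falls, Abcc2 changed by -0.16, -0.36, -0.90, -2.41 and -2.42, and Ass1 by -0.06, -0.27, -0.73, -1.37 and -1.66. Tested as a difference of changes, 24 h against 12 h gave no call (0%; 955 at an unadjusted p under 0.05), and 150 with the rat as a block, 12 more positive and 138 more negative at 24 h. The smallest p was that of Acot8, with a difference of 0.86 ± 0.20 log2 (SE, adjusted p = 0.206). The median half-width of the unadjusted 95% interval was 0.552 log2, and the adjusted threshold asks for larger differences than that. The lack of calls therefore does not show equal changes at 12 and 24 h. The change at 24 h differed from that at 72 h in 2 genes (0.0226%; 520 at an unadjusted p under 0.05), in none without the 2 arrays of low signal and in 34 with the block. Cryab, the small heat shock protein αB-crystallin, changed by -0.45 at 24 h and -1.83 at 72 h, a difference of 1.38 ± 0.25 (SE, adjusted p = 0.00631). Tmem205, a membrane protein, changed by 0.40 and 0.85, a difference of -0.45 ± 0.09 (SE, adjusted p = 0.0175). Without the 2 arrays of low signal the adjusted p was 0.516 for Cryab and 0.609 for Tmem205. The count of 2 became 0 without the 24 h 1 µM array of Rs631 or the 24 h 0 µM array of Rs627, and 1 without the 24 h 0 µM array of Rs632, the 72 h 1 µM array of Rs627 or the 72 h 0 µM array of Rs631.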

How the data were processed

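RNA of cultured hepatocytes was labelled with a 3′ IVT kit and hybridised to Affymetrix arrays, per the labels. What the authors deposited are log2 values of intensity for 31139 probe sets; per the submitters' processing notes GCRMA and Partek were used, with no version or role given. Probe sets were named through the platform annotation: 19069 had 1 symbol, 572 several and 11498 none, and 18989 of the first were found in RefSeq (GRCr8). Of several probe sets of a gene, that with the highest mean over the 100 arrays was used, giving 13439 genes, of which 8843 exceeded log2 5 in at least 3 arrays. Array data carry no counts, so the number of arrays limits the precision.

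All 100 arrays entered a linear model of 30 groups (limma 3.58.1, R 4.3.3, 70 residual degrees of freedom, empirical Bayes), and contrasts were tested two-sided with Benjamini-Hochberg adjustment at 0.05. The model was checked on simulated data with independent residuals for each gene and array. These data held no shift of whole arrays and no correlation within a rat, so the check could not test their effect on the calls. A gene entirely at or under log2 5 in 1 group is given as a bound, the mean of the brighter group as measured over that of the dimmer group with values under 5 set to 5. Arrays of the same rat come from the same animal. The deviations of its 1 µM and 0 µM arrays from the group means correlated by 0.251 in Rs627, 0.567 in Rs631 and 0.136 in Rs632. Between a 1 µM and a 0 µM array of different rats the correlations ran from -0.558 to 0.365. The rat was used as a block in an alternative, printed where it changed the count of a list. With this block each rat's arrays are compared among themselves. The alternatives were other scalings, filters, priors, probe sets and samples, and leaving out each array.

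Genes named are up to 15 rises and 15 falls by log2 change among calls that held on the 3 scales in 3 rats, up to 6 bounds each way by adjusted p, up to 6 members of each list by p with any member of a short list, known PPARα targets, and the first genes by p of the other comparisons; unnamed loci and ribosomal proteins were skipped. The arrays described and the gene lists were chosen with earlier results of these data known. Promoter windows are RefSeq's (GRCr8). Figures were drawn with matplotlib 3.10.9.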

Additional observations from a re-analysis of the deposited data

Results flagged for a closer look

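In 7 of the 174 genes named, an array of the 4 at 1 µM stood apart from the other 3 by more than Dixon's 95% criterion for a gap relative to the range, which chance alone gives in about 1 of 20 groups. The 1 µM array of Rs631, which has low signal, was the lowest in 5 of them, with 3.98 for Aqp3, 10.05 for Aqp7, 5.94 for Colq, 7.82 for Fads2 and 8.74 for Nim1k. The same array was the highest for Slc2a2, with 11.51. The 1 µM array of Rs632 was the highest for Slc25a20, with 11.09.

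The change at 24 h differed from that at 72 h in a test of the difference itself for 2 genes. For Cryab the difference, 24 h minus 72 h, was 1.38 log2 and for Tmem205 it was -0.45 log2. Both calls were lost without the 2 arrays of low signal, where the differences were 1.18 for Cryab and -0.38 for Tmem205.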

How the results depend on the processing

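The count of genes higher at 1 µM than at 0 µM, 624 as reported, was 1297 after 75th percentile scaling, 1009 with the replicate block (the rat), 2260 with the block and 75th percentile scaling, 1612 with the block and quantile normalization (added after seeing the data) and 256 when the 7 arrays were fitted alone. The count of genes lower, 1995 as reported, was 650 after 75th percentile scaling, 558 without the 2 arrays of low signal, 3396 with the replicate block and 302 from the 7 arrays alone. Leaving out 1 array at a time gave 475 to 685 higher and 1031 to 2612 lower. The other settings (quantile normalization, median centring, 24 h arrays alone, no filter, a filter at log2 7, a trended and robust prior, every probe set) moved either count by less than 1.5 times. Differences from 0.1 µM, 0 as reported, numbered 18 after 75th percentile scaling, 3 after quantile normalization, 4 without the 2 arrays, 74 with the replicate block and 0 to 384 without 1 array. Differences from 10 µM, 0 as reported, numbered 0 to 19 without 1 array. Genes whose change differed from 12 h, 0 as reported, numbered 2, 1, 1 and 150 after 75th percentile scaling, after quantile normalization, without the 2 arrays and with the replicate block, and 0 in each fit without 1 array. Those that differed from 72 h, 2 as reported, numbered 1 after 75th percentile scaling, 0 without the 2 arrays, 34 with the block and 0 to 3 without 1 array. The change of Apoa1 turned to 0.021 after 75th percentile scaling and 0.080 with the replicate block added, and that of Ppara ranged from -0.039 to 0.28 without 1 array, below 0 without the 0 µM array of Rs631. That of Arrdc2 turned to 0.078 after 75th percentile scaling and 0.24 without the 2 arrays, and ranged from -0.488 to 0.0042 without 1 array, above 0 without the 0 µM array of Rs632. None of these 3 genes passed in any of these settings. Of 174 genes named, 128 kept their direction and their side of the threshold under every setting run. Some were named because they passed on the deposited scale, after 75th percentile scaling and after quantile normalization, and others for a small p. The 128 therefore do not describe all genes. Of all calls, 461 of the 624 rises and 539 of the 1995 falls passed without the 2 arrays. The cause of these shifts was not tested. Values under log2 5 are not separated from background, which limits folds of low genes to bounds.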

Other observations

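Several gene groups stand outside the account above. Of 27 mitochondrial carriers of the SLC25 family, 4 were higher and 2 lower at 1 µM than at 0 µM. Of all genes 7.06% were higher and 22.6% lower. For these carriers the rises and falls numbered 9 and 2 after 75th percentile scaling, 5 and 2 after quantile normalization, 4 and 0 without the 2 arrays, and 5 and 5 with the block. Slc25a30 rose 2.22-fold (limma, adjusted p = 9.08e-06) and Slc25a13, the aspartate glutamate carrier of liver, 1.67-fold (adjusted p = 1.46e-05), while its relative Slc25a12 was 2.35-fold lower (adjusted p = 0.00283), a call lost without the 2 arrays (adjusted p = 0.071). Ucp2, an uncoupling protein, read 5.64, 5.94, 4.86 and 4.61 at 1 µM, against 4.02, 3.78 and 3.85 at 0 µM, at least 1.2-fold higher (adjusted p = 0.00476). Among 19 alcohol, aldehyde and retinol dehydrogenases 6 were higher and 1 lower. For the dehydrogenases the rises and falls numbered 10 and 0 after 75th percentile scaling, 7 and 1 after quantile normalization, 5 and 0 without the 2 arrays, and 13 and 1 with the block. Dhrs4, a peroxisomal retinal reductase, rose 1.88-fold (adjusted p = 3.14e-13). Of 14 one-carbon and methionine genes 5 were higher and 2 lower. For one-carbon and methionine the rises and falls numbered 7 and 1 after 75th percentile scaling, 4 and 2 after quantile normalization, 4 and 1 without the 2 arrays, and 5 and 4 with the block.

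Of 18 genes in the antioxidant list, which also holds the α-arrestins Txnip, Arrdc2 and Arrdc4, 2 rose and 4 fell. The rises were Cat and Txnip. Arrdc4 was among the falls, beside 22.6% of all genes lower. For antioxidant genes the rises and falls numbered 5 and 1 after 75th percentile scaling, 2 and 3 without the 2 arrays, and 5 and 7 with the block. Of 15 genes listed for the stress factor ATF4, with Atf4 itself among them, 1 rose, the lipoprotein receptor gene Vldlr, and 1 fell. Of all genes 7.06% rose and 22.6% fell. For the ATF4 list the rises and falls numbered 3 and 0 after 75th percentile scaling, 2 and 0 after quantile normalization, 1 and 0 without the 2 arrays, and 1 and 2 with the block. Of 12 heat shock genes 1 rose and 2 fell, beside 7.06% and 22.6% of all genes. For heat shock genes the rises and falls numbered 2 and 1 after 75th percentile scaling, 1 and 0 without the 2 arrays, and 2 and 4 with the block. Among 18 chaperones and sensors of the endoplasmic reticulum 4 fell and none rose, beside 22.6% of all genes lower and 38.4% with the block; 1 fell on all 3 scales. For these chaperones the rises and falls numbered 1 and 1 after 75th percentile scaling, 0 and 5 after quantile normalization, 0 and 1 without the 2 arrays, and 1 and 11 with the block. Hsp90b1, a chaperone of that compartment, read 11.89, 12.18, 12.04 and 11.89 at 1 µM, against 12.58, 12.52 and 12.68 at 0 µM, 1.51-fold lower (adjusted p = 3.07e-07, and 0.136 after 75th percentile scaling). In the cell cycle list 2 of 23 genes rose, among them G0s2, the inhibitor of Pnpla2, and 2 fell. Of all genes 7.06% rose and 22.6% fell. For the cell cycle the rises and falls numbered 2 and 0 after 75th percentile scaling, 2 and 1 without the 2 arrays, and 2 and 8 with the block. Myc, a growth regulator, was 1.72-fold lower (adjusted p = 0.000147, and 0.103 after 75th percentile scaling).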
